A study of Rattus norvegicus with 105 samples.

Results

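Cxcl13, a chemokine that draws B cells into tissue, was followed with 8 genes of B cells through rat muscle carrying metal pellets. The set is Cxcl13, its receptor gene Cxcr5, and Cr2, Cd79b, Bank1, Cd22, Fcer2, Blk and Cd37. Probe sets were taken by gene symbol. All 9 genes were found, each on 1 probe set, among 14855 probe sets that carry a symbol. The genes had been chosen by measured values, namely their difference between cobalt and tantalum muscle at 3 months, so that difference is given as a description, with no p, and supports nothing here.

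Male Sprague-Dawley rats, bought at about 30 days of age and housed for at least 2 weeks before surgery, received 4 pellets of 1 metal, 2 in the gastrocnemius of each limb. The metals were tantalum (Ta), which served as the sham control, and aluminum (Al), cobalt (Co), copper (Cu), depleted uranium (DU), iron (Fe), nickel (Ni), lead (Pb) and tungsten (W). All rats of every group, controls included, had surgery and carried pellets, so no level here is that of muscle without an implant. Muscle was taken after 1, 3, 6 or 12 months, which gives 35 groups of 3 arrays; nickel at 12 months was not analysed here. Each array holds RNA pooled from 2 to 3 rats of the 8 assigned to a group, so a replicate is a pool, and a p-value measures the spread between pools. Bulk muscle RNA was measured, so more cells of a type and more RNA per cell cannot be told apart.

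Levels are log2 intensities of a probe set, and differences are log2 values with the standard error (SE) of a linear model fitted to all arrays. The model takes 1 variance per probe set from all groups together, so an SE does not follow the spread of the groups compared. For Cxcl13, the standard deviation of the 3 pools ran from 0.06 (copper, 12 months) to 2.42 (aluminum, 12 months). A probe set was called when its adjusted p in limma, over 22954 probe sets, was below 0.05. Array medians lay between 6.36 and 6.54, and averaged over its pairings with the rest, no array correlated below 0.970. The mean of 11 skeletal muscle genes lay between 12.56 and 13.33 on every array. The 23 control probe sets had a median of 4.09. Cxcr5, Cr2, Cd79b, Bank1, Fcer2 and Blk lay in the dimmest 30% of probe sets, under 5.45 on average over all arrays, where a fold change is compressed by the background.

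In lymphoid tissue Cxcl13 is made mainly by follicular stromal cells, and it guides B cells that carry the receptor CXCR5 into follicles. Macrophages and follicular helper T cells can make it as well. In chronically inflamed tissue it is known as a marker of lymphoid aggregates outside lymph nodes. Cr2 encodes complement receptor 2, found on mature B cells and follicular dendritic cells. Cd79b is a signalling chain of the B cell receptor, Blk a kinase and Bank1 a scaffold of its pathway, and Cd22 a lectin that damps it. Fcer2 encodes CD23, a low-affinity receptor for IgE, and Cd37 a tetraspanin that is strongest on B cells but also present on other leukocytes.

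RefSeq (rat build GRCr8) gave an upstream sequence for 5 of the 9 genes: Cxcl13, Cr2, Bank1, Cd22 and Cd37. The 250 bases before the start site are shown for Cxcl13, the gene with the widest range of levels, and for Bank1 and Cd37, whose windows hold motifs of lymphoid or myeloid factors. All 3 genes lie on the minus strand. The Cxcl13 window is chr14:13917921-13918170, and the capitals mark a TATA box that begins 33 bases before the start. The Bank1 window is chr2:227473716-227473965, with 2 matches to the EBF core in capitals. The Cd37 window is chr1:104860785-104861034, with an NF-kB consensus match and a PU box in capitals, both read on the opposite strand.
Cxcl13: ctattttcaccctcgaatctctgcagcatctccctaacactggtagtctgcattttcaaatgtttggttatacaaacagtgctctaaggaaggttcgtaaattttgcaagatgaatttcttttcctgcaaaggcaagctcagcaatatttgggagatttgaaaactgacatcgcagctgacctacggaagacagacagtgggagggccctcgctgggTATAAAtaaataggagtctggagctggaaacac
Bank1: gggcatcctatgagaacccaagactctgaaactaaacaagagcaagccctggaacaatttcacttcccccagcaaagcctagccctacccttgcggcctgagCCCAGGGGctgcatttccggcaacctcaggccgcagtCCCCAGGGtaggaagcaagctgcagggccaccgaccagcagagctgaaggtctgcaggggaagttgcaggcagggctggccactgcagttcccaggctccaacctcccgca
Cd37: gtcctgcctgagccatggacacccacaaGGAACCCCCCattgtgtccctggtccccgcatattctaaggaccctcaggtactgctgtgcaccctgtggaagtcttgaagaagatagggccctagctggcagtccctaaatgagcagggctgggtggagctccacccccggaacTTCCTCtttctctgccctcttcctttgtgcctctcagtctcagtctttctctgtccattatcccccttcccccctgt
Both strands were searched for 6 motifs. The PU box (GAGGAA), bound by PU.1, was present in Cd22 and Cd37 and in 23.3% of 33469 upstream windows of this length. The EBF core (CCCNNGGG) was present in Bank1 and in 10.8% of windows, the TATA box (TATAAA) in Cxcl13 and in 12.9%, and the NF-kB consensus in Cd37 and in 6.33%. The octamer (ATGCAAAT, 1.56% of windows) and the interferon gamma site GAS (TTCNNNGAA, 7.67%) were in none of the 5 windows. No motif was shared by more than 2 of the 5 windows.

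At 3 months, cobalt muscle held the highest level of Cxcl13 in the series and raised levels of the B cell genes beside it. Cxcl13 was at 12.07, 11.24 and 11.79 in the 3 cobalt pools and at 8.19, 9.80 and 5.64 in the 3 tantalum pools. The groups did not overlap, but the tantalum pools were far apart. The difference was 3.82 ± 0.67 (SE), and it was 4.78 without tantalum replicate 2 and 2.70 without replicate 3. Against the mean of aluminum, copper, depleted uranium, iron, lead and tungsten muscle at 3 months, called the 6 metals below, it was 5.26 ± 0.51.

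Of the receptors, Cxcr5 was at 6.44, 6.60 and 6.37 with cobalt and at 5.14, 4.87 and 5.22 with tantalum, a difference of 1.39 ± 0.22. Cr2 was at 7.08, 6.72 and 6.67 with cobalt and at 3.99, 3.96 and 3.81 with tantalum. In tantalum muscle it thus lay at the level of the control probe sets, and the difference of 2.90 ± 0.17 starts from background. Fcer2 was at 5.60, 5.77 and 5.17 against 4.52, 4.23 and 4.70, a difference of 1.03 ± 0.21.

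Within the B cell receptor pathway, Cd79b was at 6.83, 6.93 and 6.56 in cobalt pools and at 4.54, 5.04 and 4.84 in tantalum pools (1.97 ± 0.20). The scaffold gene Bank1 was at 7.09, 7.35 and 6.91 against 5.21, 5.36 and 5.54 (1.75 ± 0.18). For both, the lowest cobalt pool lay over 1 log2 unit above the highest tantalum pool. The inhibitory lectin Cd22 was at 7.91, 7.69 and 7.41 against 6.36, 6.40 and 6.26 (1.33 ± 0.15). Blk, the kinase, was at 5.33, 4.78 and 5.09 against 3.98, 4.66 and 4.50, the smallest difference of the 9 at 0.69 ± 0.18. It lay between 0.49 and 0.83 when single arrays of the 6 were left out. The tetraspanin gene Cd37 was at 8.61, 8.56 and 8.92 against 6.21, 6.25 and 5.68, a difference of 2.65 ± 0.22.

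All 9 genes were called as higher in cobalt than in tantalum muscle at 3 months, where 4.87% of all probe sets were, and higher than in the 6 metals, where 7.59% were. For 8 of the 9 genes, all 3 cobalt arrays lay above each of the other 102 arrays, which held for 2.15% of probe sets. The genes were chosen for their levels in these cobalt arrays, so nothing is read from any of these 3 counts. Blk was the exception, with a cobalt pool at 4.78 and a lead pool of 1 month at 5.34. The highest value outside cobalt at 3 months was 10.30 for Cxcl13 and 6.81 for Cd37, both in nickel replicate 2 of 3 months. For Cr2 it was 4.595, in replicate 1 of depleted uranium at 3 months.

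Cobalt muscle of the other months held none of these levels. Cxcl13 was at 5.74, 6.70 and 6.88 after 1 month, 5.26, 5.32 and 5.46 after 6 months, and 5.88, 6.41 and 5.44 after 12 months. Cobalt at 3 months thus exceeded the same metal by 5.26 ± 0.67 at 1 month, 6.35 ± 0.67 at 6 months and 5.79 ± 0.67 at 12 months. Cr2 differed by 2.97 ± 0.17, 3.12 ± 0.17 and 2.88 ± 0.17 in the same order. For every one of the 9 genes, the 3 cobalt pools of 3 months lay above the 3 cobalt pools of each other month. The genes were chosen for their levels in the cobalt arrays of 3 months, so nothing is read from this count.

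**Figure D1:**
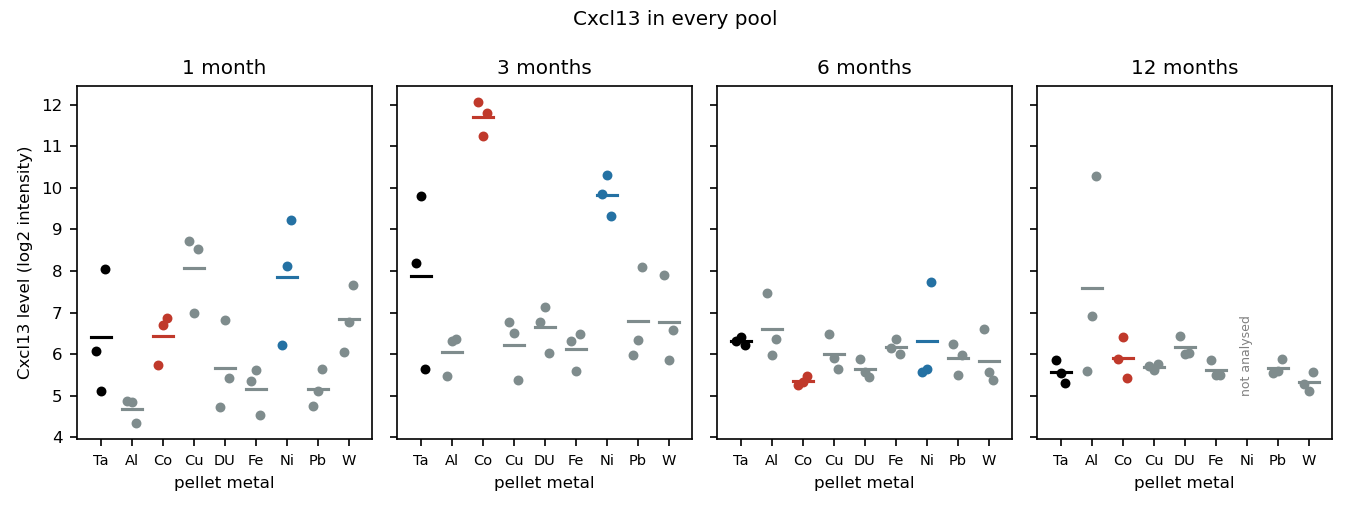
Level of Cxcl13 (log2 intensity) in every pool, by month and pellet metal; points are pools and bars are means of 3 pools. Cobalt at 3 months lies between 11.24 and 12.07 and nickel at 3 months between 9.32 and 10.30, while tantalum at 3 months spans 5.64 to 9.80.

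**Figure D2:**
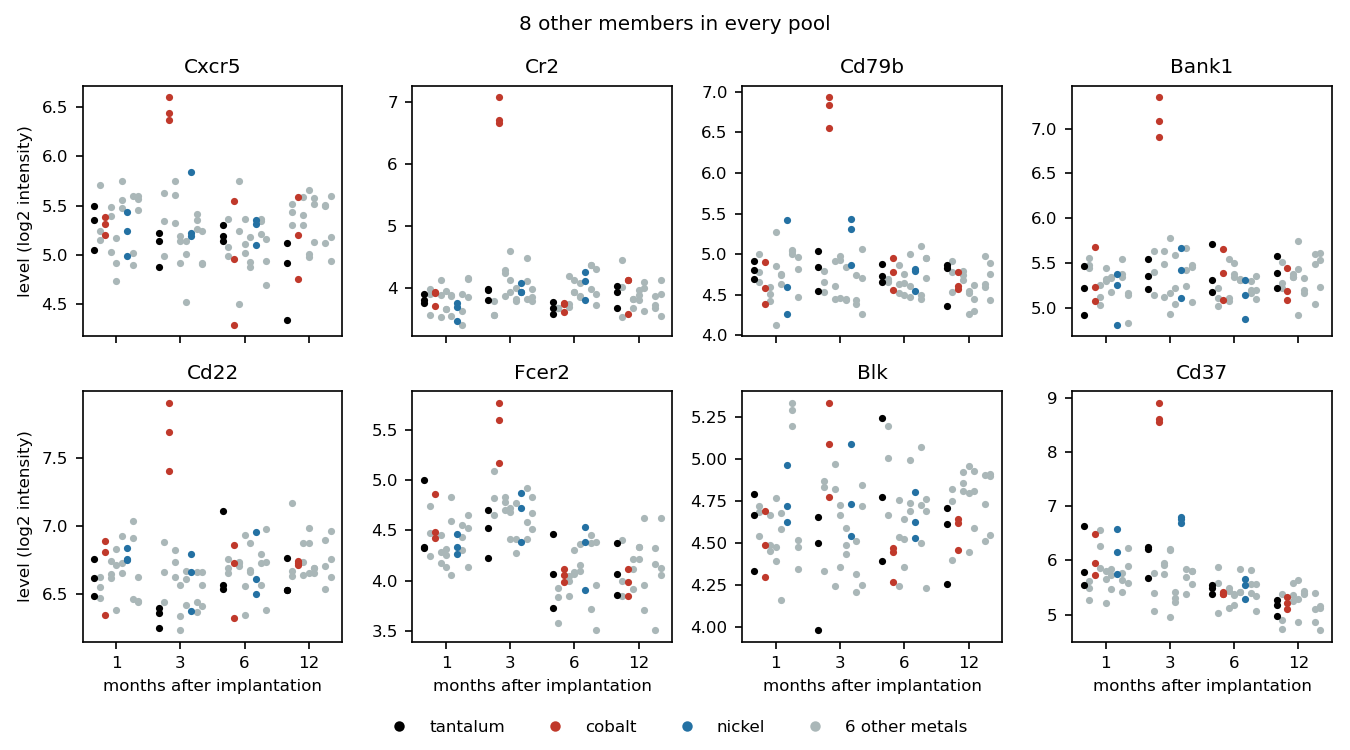
Levels (log2 intensity) of the 8 other genes in every pool against months after implantation; points are pools, coloured for tantalum, cobalt and nickel, with the 6 other metals in grey, and each panel has its own vertical scale. Cobalt at 3 months lies above all other pools in 7 of the 8 panels, and in the Blk panel 3 lead pools at 1 month lie at 5.20 to 5.34.

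Nickel at 3 months offers a comparison that uses neither the cobalt arrays nor the tantalum arrays behind the choice of genes. There Cxcl13 rose and most of the B cell genes did not pass. Cxcl13 was at 9.86, 10.30 and 9.32, each above all 18 pools of the 6 metals at 3 months (mean 6.44). The difference was 3.39 ± 0.51, a 10.5-fold higher level (limma, adjusted p = 4.62e-07). Cd37 was at 6.76, 6.81 and 6.69, also above all of those pools, and rose by 1.13 ± 0.17, or 2.18-fold (adjusted p = 7.48e-07). Cd79b was at 5.43, 5.31 and 4.87 and overlapped the 6 metals. It rose by 0.56 ± 0.15 (adjusted p = 0.00966), but did not pass without nickel replicate 1 (adjusted p = 0.229) or replicate 2 (adjusted p = 0.129).

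Thus 3 of the 9 genes rose in nickel muscle against the 6 metals, where 5.19% of all probe sets did, and 0 fell. Against tantalum of the same month 0 of the 9 were called, where 2.82% of all probe sets rose. Of the 6 genes that did not pass against the 6 metals, Cr2 had a difference of 0.01 with a 95% interval of -0.25 to 0.27. Bank1 had one of 0.04 with an interval of -0.23 to 0.31. The intervals were -0.18 to 0.28 for Cd22, -0.33 to 0.30 for Fcer2, -0.12 to 0.55 for Cxcr5 and -0.06 to 0.50 for Blk. The same differences in cobalt muscle come from the arrays that chose the genes and share the arrays of the 6 metals, so they are plotted beside those of nickel as a description, and the difference between the 2 metals was not tested.

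**Figure D3:**
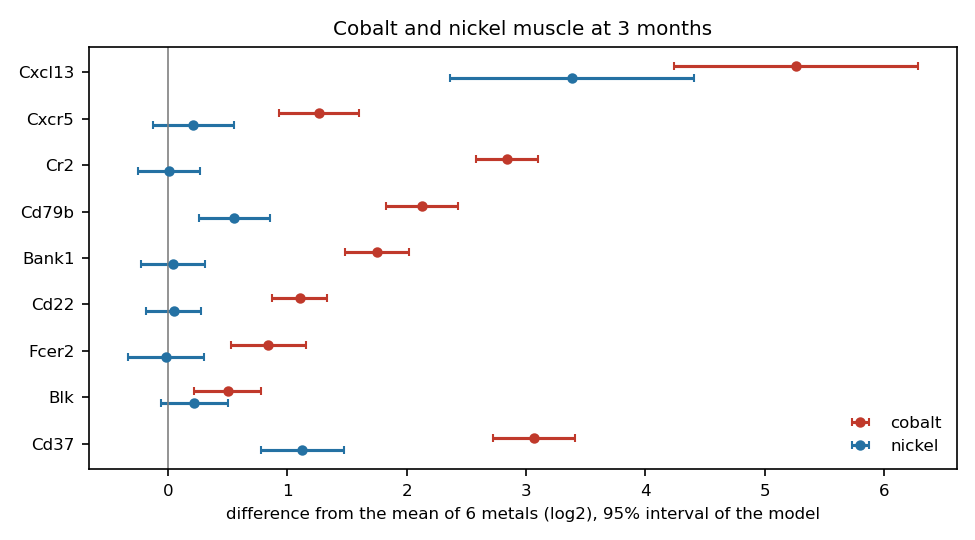
Differences of cobalt (red) and nickel (blue) muscle from the mean of the 6 metals at 3 months, in log2 units with the 95% interval of the model, for the 9 genes; 3 pools per metal. For nickel the intervals of Cxcl13, Cd79b and Cd37 lie above 0 and those of the other 6 genes include 0.

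Within nickel muscle, Cxcl13 fell away after 3 months. It was at 5.58, 5.64 and 7.73 at 6 months, below all nickel pools of 3 months, and the level at 3 months was higher by 3.51 ± 0.67 (limma, adjusted p = 7.69e-05). Cd37 was higher at 3 than at 6 months by 1.26 ± 0.23 (adjusted p = 2.64e-05). These were 2 of the 9 genes, where 6.03% of probe sets were called as higher. In the same comparison 14 of 16 macrophage genes, 4 of 6 fibroblast genes and 4 of 6 endothelial genes were higher at 3 months. The mean of the macrophage genes was 7.82 to 8.18 in nickel pools of 3 months and 6.68 to 6.99 in those of 6 months, and the part of these cells in the change of Cxcl13 was not tested. At 1 month nickel pools already reached 6.21, 8.13 and 9.22 for Cxcl13, and 3 months exceeded 1 month by 1.97 ± 0.67 (adjusted p = 0.304). Of the 9 genes 0 passed between 3 and 1 month in limma, where 0.166% of probe sets were called as higher. An unadjusted p below 0.05 was reached by 4 of the 9. The share of all probe sets at that unadjusted level is not given here, so nothing is read from the 4.

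Compared with tantalum of the same month, nickel muscle at 3 months gave a smaller difference for Cxcl13. The mean of tantalum was 7.88, against 6.44 in the 6 metals, but its pools ran from 5.64 to 9.80. The difference of nickel from tantalum was 1.95 ± 0.67 and was not called (limma, adjusted p = 0.0976). Without tantalum replicate 2, at 9.80, it was 2.91 (adjusted p = 0.00819), and without replicate 3, at 5.64, it was 0.83 (adjusted p = 0.775). Cd37 differed by 0.71 ± 0.23 (adjusted p = 0.0653), and it was the single gene of the 9 whose 3 nickel pools lay above the 3 tantalum pools, which held for 9.75% of probe sets. All 8 comparisons at 3 months share these tantalum arrays. For the 6 metals, Cxcl13 lay below tantalum by amounts from -1.07 in lead to -1.83 in aluminum, and none of these passed.

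Cxcl13 had the widest spread between pools of a group among the 9 genes. Its standard deviation between pools, taken over all groups, was 0.862, and 2 of 22954 probe sets had a larger one; the median over all probe sets was 0.201. For the other 8 genes it lay between 0.186 for Cd22 and 0.287 for Cd37. Tantalum pools alone ran from 5.11 to 9.80 over the 12 control arrays. At 1 month they were at 6.09, 5.11 and 8.04, and at 6 months at 6.32, 6.41 and 6.23. For Cr2 the same 12 arrays ran from 3.58 to 4.02. The control was thus near background throughout for Cr2. For Cxcl13 it was highly variable at 1 and 3 months (SD 1.49 and 2.10) and much less so at 6 and 12 months (SD 0.09 and 0.28).

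Single pools decided several Cxcl13 means. Aluminum at 12 months was at 5.59, 6.92 and 10.29. Without its replicate 3 the Cxcl13 standard deviation between pools, taken over all groups, fell from 0.862 to 0.773. The mean of tantalum at 3 months exceeded that of the 6 metals by 1.44 ± 0.51 (limma, adjusted p = 0.6). It was 2.56 without tantalum replicate 3 (adjusted p = 0.0288), 1.28 without replicate 1 (adjusted p = 0.999) and 0.47 without replicate 2 (adjusted p = 0.914). In the order of the 35 group means, cobalt at 3 months (11.70 ± 0.42, SD, n = 3) was followed by nickel at 3 months (9.83 ± 0.49), copper at 1 month (8.08 ± 0.95), tantalum at 3 months (7.88 ± 2.10) and nickel at 1 month. The lowest was aluminum at 1 month, at 4.88, 4.86 and 4.34. Of the 34 steps between neighbours in that order, the first 2, of 1.87 and 1.74, exceeded the 95% margin of the model for a difference between groups (SE 0.67), and the others did not.

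Pools with more Cxcl13 than the others of their group also had more macrophage transcripts. Over 99 arrays in 33 groups, leaving out cobalt and tantalum at 3 months, the deviation of Cxcl13 from its group mean was correlated with that of the mean of 16 macrophage genes, with Pearson's r = 0.794 and Spearman's rho = 0.749. Both had a permutation p of 1e-05, the smallest that 100000 permutations within groups can give, and an adjusted p of 6e-05 over 12 relations. Each group was permuted separately, although same-numbered pools of different groups deviated together at 6 months and in most comparisons at 12 months. The permutation p-values here and below may therefore be too small. Within months r was 0.892, 0.806, 0.66 and 0.712 at 1, 3, 6 and 12 months. It was 0.768 without the 2 pools farthest from the median, aluminum at 12 months replicates 1 and 3.

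Cd37 followed Cxcl13 in the same way but less closely, with r = 0.453 (permutation, adjusted p = 0.00324) and rho = 0.404 (adjusted p = 0.00462). Its r was 0.694, 0.292, 0.157 and 0.425 within the 4 months, and 0.44 without the same 2 pools. The other 7 B cell genes had r between -0.122 and 0.154, with adjusted p from 0.715 upward, and rho between -0.0548 and 0.165, with adjusted p from 0.37 upward. Within months their r ran from -0.535 for Cd22 to 0.601 for Cr2, both at 12 months. For the mean of 9 pan-leukocyte genes r was 0.77 and rho 0.767 (adjusted p = 6e-05 each), and within months r was 0.934, 0.81, 0.638 and 0.55. For 7 MHC class II genes r was 0.591 (adjusted p = 8e-05) and rho 0.523 (adjusted p = 0.00012), with r of 0.864, 0.572, 0.294 and 0.248. For 14 T cell genes r was 0.304 (adjusted p = 0.0609) and rho 0.382 (adjusted p = 0.00463), with r of 0.623, 0.627, 0.326 and -0.356. The part of cell composition in these relations was not tested.

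**Figure D4:**
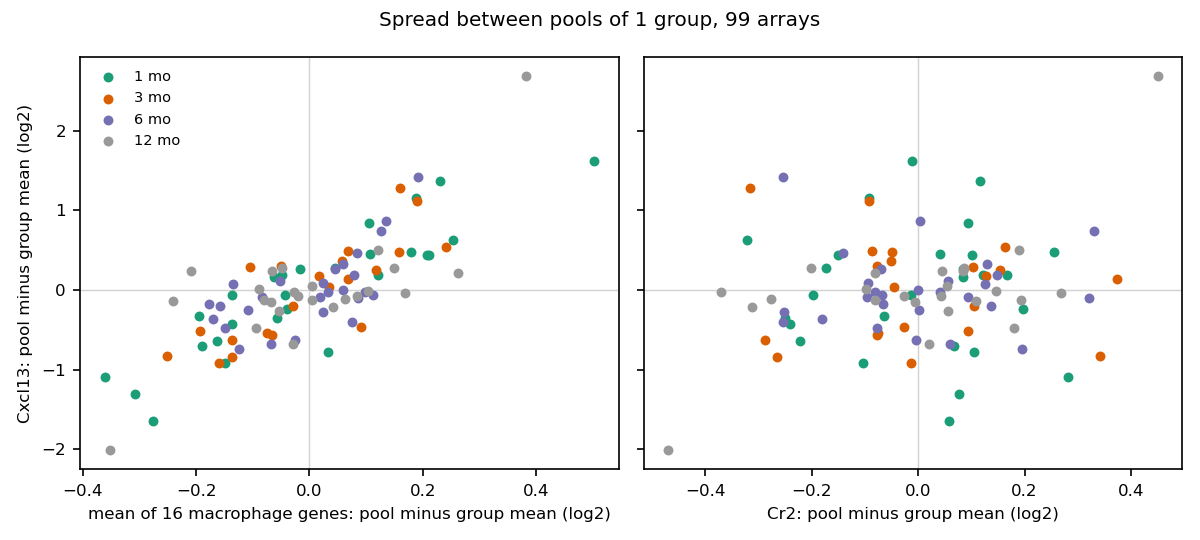
Deviation of Cxcl13 from its group mean (log2) against that of the mean of 16 macrophage genes (left) and of Cr2 (right), for 99 pools coloured by month; cobalt and tantalum at 3 months are left out. The left points rise together (r = 0.794), and the right ones do not (r = 0.154), apart from the 2 aluminum pools of 12 months at the corners.

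Fc receptor genes were among those whose group means followed Cxcl13 most closely. Over 34 group means, without cobalt at 3 months, the 5 genes with the highest Pearson correlation among 14854 were Fcer1g (0.88), an Fc receptor chain of myeloid and NK cells, Fcgr2b (0.85), an inhibitory Fc receptor of B cells and myeloid cells, the interferon-induced GTPase Ifi47 (0.83), the lectin receptor Clec4a1 (0.83) and Cd4 (0.82), a gene of helper T cells that rat macrophages also carry. Cd37 reached 0.70, and the other 7 genes of the set lay between -0.26 and 0.27. In each correlation both genes were read from the same arrays, and groups share months, so these correlations are a description.

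Of 207 differences from tantalum at 1, 6 and 12 months (9 genes in 23 comparisons), 1 passed in limma and 14 had an unadjusted p below 0.05. The share of all probe sets at that unadjusted level is not given here, so nothing is read from the 14. The 207 differences ran from -1.72 to 2.03, both ends being Cxcl13 in aluminum muscle, at 1 and at 12 months. The call was Blk in lead muscle at 1 month, at 5.20, 5.34 and 5.30 against 4.67, 4.80 and 4.34 in tantalum, with no overlap. It rose by 0.68 ± 0.18 (adjusted p = 0.0281), in a comparison where 1.29% of probe sets were called as higher. The call did not hold without lead replicate 2 (adjusted p = 0.198), nor without tantalum replicate 1 (0.0569), 2 (0.0548) or 3 (0.124). With the 6 arrays compared fitted alone it was 0.217, and after a second quantile normalization 0.0911. Cd79b in the same lead pools was at 5.04, 5.01 and 5.05 and did not pass (0.23 ± 0.20, adjusted p = 0.531).

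Cxcr5 at 12 months gave differences of a like size that did not pass. Tantalum pools were at 4.92, 5.12 and 4.33, copper pools at 5.30, 5.59 and 5.41, and aluminum pools at 5.52, 5.44 and 5.30. Iron pools were at 5.58, 5.52 and 5.13, and lead pools at 5.49, 5.12 and 5.51. The 4 comparisons share the 3 tantalum pools, and Cxcr5 lay in the dimmest 30% of probe sets. The differences (SE 0.22 each) were 0.64 for copper (limma, adjusted p = 0.899), 0.63 for aluminum (0.402), 0.62 for iron (0.992) and 0.58 for lead (0.669). Without tantalum replicate 3, the lowest pool, they were 0.41, 0.40, 0.39 and 0.36 in that order.

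Cxcl13 at 1 month was at 8.72, 6.995 and 8.54 in copper muscle and reached 9.22 in a nickel pool, against 8.04 in the highest tantalum pool. Its difference from tantalum was 1.67 ± 0.67 for copper (limma, adjusted p = 0.472) and 1.44 ± 0.67 for nickel (adjusted p = 0.412). For copper it was 2.48 without tantalum replicate 3 and 1.02 without tantalum replicate 2. For nickel it was 2.26 without nickel replicate 1 and 0.76 without nickel replicate 3, and leaving out any single array brought no call in either. With the 6 metals of that month as the reference in place of tantalum, leaving out copper itself for copper, it was 2.58 ± 0.52 (adjusted p = 0.00113) for copper and 1.92 ± 0.51 (adjusted p = 0.0368) for nickel. A test among all 9 metals at 1 month passed for Cxcl13 and Blk, 2 of the 9 genes, where 4.77% of probe sets passed. Among 7 metals at 3 months, without cobalt and tantalum, it passed for Cxcl13 and Cd37, where 4.42% did. These tests among metals were chosen after the values had been seen. As means over the months other than 3, 0 of 72 differences from tantalum passed in limma (lowest adjusted p 0.109), with 1 at an unadjusted p below 0.05.

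Over time, 2 of the 9 genes changed in the 6 metals. Fcer2 rose by 0.27 ± 0.08 from 1 to 3 months (limma, adjusted p = 0.0177) and then lay below its level of 1 month by -0.36 ± 0.08 at 6 months (adjusted p = 0.000542) and -0.26 ± 0.08 at 12 months (adjusted p = 0.0109). Cd37 fell by 0.30 at 6 months (SE 0.09, adjusted p = 0.00823) and by 0.54 at 12 months (SE 0.09, adjusted p = 1.62e-06). At 6 and 12 months the mean of Fcer2 in the 6 metals was 4.04 and 4.14, at the control probe sets' median of 4.09, so its later levels are not above background. These are 1 of 9 genes higher at 3 months, where 7.63% of probe sets were, and 2 of 9 lower at 6 and at 12 months, where 17.2% and 17.9% were, so the counts lie near the background. A month is also a separate cohort, and time and the handling of a cohort cannot be told apart. Over the 33 groups without cobalt and tantalum at 3 months, 5 of the 9 genes differed (Cxcl13, Cd37, Fcer2, Blk and Cr2), where 34.8% of probe sets did.

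Other leukocyte genes were raised beside the set at 3 months, in lists chosen with earlier results of these data known. The cobalt and tantalum arrays are those that chose the set. The cobalt counts and differences, here and in the lists below, are therefore a description. In cobalt muscle against tantalum, 9 of 18 further B cell genes rose and 0 fell, where 4.87% of all probe sets rose. Their median difference was 0.70, against -0.05 over all probe sets. The largest were Blnk (2.11 ± 0.27), an adaptor of the B cell receptor, the kinase Syk (1.94 ± 0.21), Ly86 (1.86 ± 0.25), the kinase Btk (1.65 ± 0.24) and Cd180 (1.39 ± 0.23). Several of these genes, Syk, Btk, Blnk and Ly86 among them, are also made by myeloid cells. The B cell transcription factor Pax5 had a difference of 0.45 (adjusted p = 0.0754) and Ebf1 one of 0.04. The mean level of the 18 genes was 7.17 to 7.22 in cobalt pools and 6.24 to 6.42 in tantalum pools. Ms4a1, Cd79a and Ighm were not analysed here.

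In nickel muscle against the 6 metals, 6 of the 18 B cell genes rose and 0 fell (median 0.23), where 5.19% of all probe sets rose. They included Blnk (1.57 ± 0.21, adjusted p = 1.23e-08), Syk (1.15 ± 0.16), Ly86 (1.10 ± 0.19), Btk (1.01 ± 0.18) and Plcg2 (0.57 ± 0.14). Several of these genes are also made by myeloid cells, and 15 of 16 macrophage genes rose in the same comparison. Cr2, Bank1, Cd22 and Fcer2 of the set did not pass there. Which cells carried the rise was not tested. Of 9 plasma cell genes, 6 rose in nickel muscle against the 6 metals and 5 in cobalt muscle against tantalum, where 5.19% and 4.87% of all probe sets rose. Mzb1, a chaperone of immunoglobulin assembly, rose by 0.76 ± 0.14 in nickel (adjusted p = 2.86e-05) and by 1.26 ± 0.18 in cobalt. Irf4, a transcription factor of plasma cells and T cells, rose by 0.82 ± 0.15 and 1.36 ± 0.20. The mean of the 9 plasma cell genes was 6.66 to 7.25 in nickel pools and 6.83 to 7.10 in cobalt pools. On a shared reference the counts were equal. Against tantalum 5 rose in nickel muscle too, where 2.82% of all probe sets rose. Against the 6 metals 6 rose in cobalt muscle too, where 7.59% of all probe sets rose.

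Several genes of follicles and lymphoid tissue rose with cobalt, where 4.87% of all probe sets did; for nickel the share of all probe sets was 5.19%. Of 12 germinal centre and follicular helper T cell genes, 6 rose with cobalt, among them Btla (1.61 ± 0.24), Sh2d1a (1.52 ± 0.20) and Icos (1.36 ± 0.20), and 4 with nickel. Of 13 B cell survival and lymphoid tissue factors, 6 rose with cobalt, led by Il7r (2.77 ± 0.25) and the lymphoid chemokine Ccl19 (1.71 ± 0.21), and 2 with nickel, among them Il7r (2.03 ± 0.19). Ccl19 had a difference of -0.27 ± 0.16 in nickel (adjusted p = 0.438). Of 15 genes of lymph node stroma, follicular dendritic cells and high endothelial venules, 4 rose with cobalt, including the adhesion molecule Vcam1 (1.85 ± 0.23), and 1, Vcam1, with nickel (1.43 ± 0.18), a share near that of all probe sets. The differences in these counts between metals were not tested, and the references differ.

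Markers of other leukocytes moved with the set. In cobalt muscle against tantalum, 13 of 16 macrophage genes and 13 of 14 T cell genes rose. In nickel muscle 15 of 16 and 3 of 14 rose against the 6 metals, and 12 of 16 and 3 of 14 against tantalum. Of all probe sets, 4.87% rose with cobalt, 5.19% with nickel against the 6 metals and 2.82% with nickel against tantalum. The mean of the 16 macrophage genes was 8.14 to 8.65 in cobalt pools, 7.82 to 8.18 in nickel pools and 6.998 to 7.43 in tantalum pools of 3 months. For the 14 T cell genes it was 6.88 to 7.02, 5.84 to 6.03 and 5.55 to 5.69. Tantalum replicate 2 of 3 months, which had the most Cxcl13 of its group, also had the highest macrophage mean of the 3, at 7.43. NK cell genes rose in 6 of 10 cases with cobalt and 3 of 10 with nickel, and 0 of 10 neutrophil and mast cell genes rose with cobalt and 2 with nickel. Skeletal muscle genes gave 0 of 11 in both. The part of these cells in the levels of Cxcl13 and Cd37 was not tested.

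**Figure D5:**
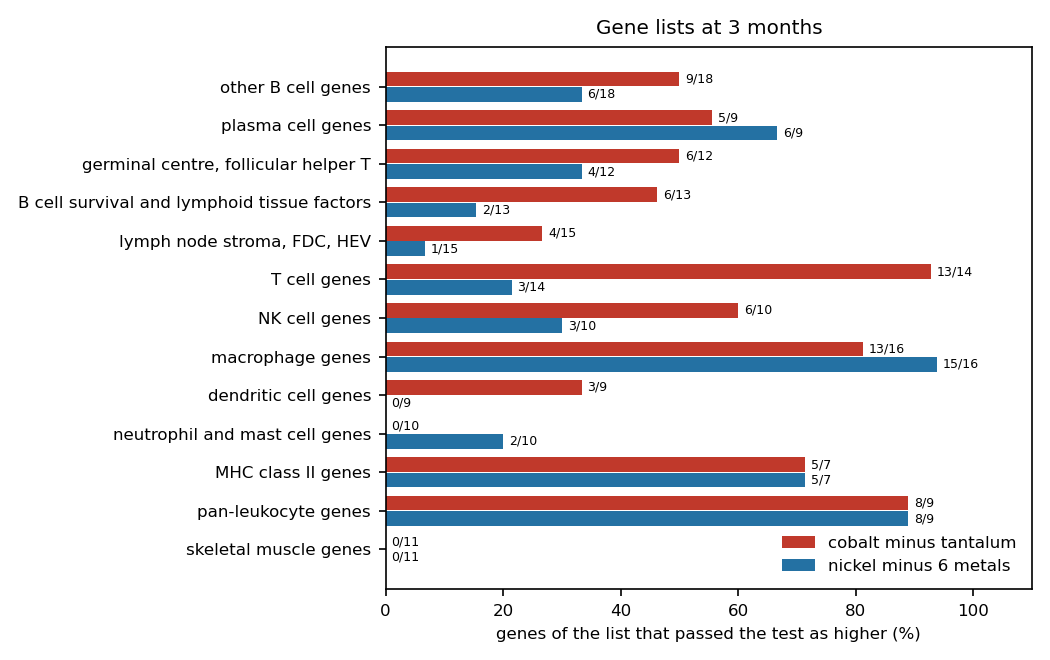
Share of the measured genes of 13 lists that passed the test as higher at 3 months (percent), for cobalt minus tantalum (red) and nickel minus the 6 metals (blue), with the counts beside the bars; FDC are follicular dendritic cells and HEV high endothelial venules. Macrophage genes rose in 13 of 16 cases with cobalt and 15 of 16 with nickel, and T cell genes in 13 of 14 and 3 of 14. The cobalt and tantalum arrays are those that chose the set, so the red bars are a description.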

How the data were processed

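The authors deposited log2 intensities from Clariom S Rat arrays, 1 value per probe set and array, made by robust multi-array averaging (RMA) with oligo under R 4.0.1, per the submitters' processing notes. Each array received 250 ng of total RNA, per the labels. Whether all arrays went through RMA together is not stated. RMA takes out differences in overall brightness and compresses low values.

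From these values 23 control probe sets were left out. Group means were estimated from every array at once in limma 3.58.1 under R 4.3.3, by lmFit followed by eBayes. The fit left 70 residual degrees of freedom, to which the prior added 7.25. Tests were two-sided, with Benjamini-Hochberg adjustment over 22954 probe sets and no filter. Symbols came from a GRCr8 gene table by gene ID: 14855 probe sets had a symbol and 8099 had none. The model was tested on simulated data. The number of arrays limits the precision.

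The genes and lists were chosen with earlier results of these data known. All 9 genes are described; of each other list, up to 5 genes with the greatest absolute difference are named, and of genes most like Cxcl13 the 5 with the highest correlation. Values of genes named after their values were seen (Pax5, Ebf1) fall outside this rule.

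Replicate numbers are shared by the labels. Pools with the same number deviated together (every pair's correlation above 0.1) in 8 of 8 comparisons at 6 months and 5 of 7 at 12 months, and in 0 of 8 at 1 month and 0 of 8 at 3 months; the pairing at 6 and 12 months is read from the data and not stated in the labels. Alternatives were a replicate block, array weights, an intensity trend, quantile normalization a second time, a filter on the dimmest 30% of probe sets, fewer arrays in the fit, the 6 metals as the reference and leaving out each array.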

Additional observations from a re-analysis of the deposited data

Results flagged for a closer look

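Some genes of the set differed among the metals of a single month in a moderated F test over all probe sets, chosen after the values had been seen. At 1 month, over 9 metals, Cxcl13 differed with an adjusted p of 0.00043 (limma), between 4.69 in aluminum and 8.08 in copper muscle as group means, and Blk with an adjusted p of 0.021, with lead muscle highest at 5.28. At 3 months, over 7 metals without cobalt and tantalum, Cxcl13 differed with an adjusted p of 0.000139 and Cd37 with an adjusted p of 4.06e-05, and nickel muscle was highest for both, at 9.83 and 6.75. At 6 and at 12 months the same test called 0 of the 9 genes, where 0 of all 22954 probe sets were called. Its unadjusted p was below 0.05 for 1 gene at 6 months (Cr2, 0.0157) and 1 at 12 months (Cxcl13, 0.0391).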

How the results depend on the processing

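Over all alternatives no called difference changed sign. Of the 207 differences from tantalum at 1, 6 and 12 months, the count of 1 became 0 without the dimmest 30% of probe sets (69 left), after a second quantile normalization and with the compared arrays fitted alone, and 3 with the 6 metals as the reference; leaving out single arrays gave 0 to 1. At 3 months the count of 9 of 72 became 3 of 24 without the dimmest 30%, because 6 of the 9 genes are then not tested, and 8 to 10 without single arrays; the 9 are the cobalt differences that chose the genes, so nothing is read from these counts or from those of cobalt below. For the same reason the 5 changes over time became 2 of 9, and the 35 of 36 differences of cobalt at 3 months from its other references became 12 of 12; without single arrays they were 5 to 6 and 32 to 36. Leaving out single arrays gave 2 to 3 calls for nickel against the 6 metals, 2 to 3 for nickel against its other months, 0 to 1 for the means over months (1 without tantalum at 6 months replicate 2: Blk in lead, adjusted p = 0.0445), 0 to 1 for tantalum against the 6 metals, and 0.773 to 0.869 for the Cxcl13 standard deviation between pools. The cause was not tested where none is given.

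With the replicate block the counts were 1 of 207 at 1, 6 and 12 months, 10 of 72 at 3 months, 0 of 72 for the means, 3 of 9 and 2 of 18 for nickel, 5 of 27 over time, 0 of 36 for tantalum and 36 of 36 for cobalt. The call gained at 3 months was Cd37 in nickel (adjusted p = 0.0416), where the numbers do not pair the pools; the block changed no call at 6 and 12 months. The precision is limited by 3 pools per group and, for 6 of the 9 genes, by a signal near background.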

Other observations

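Some other chemokines of the CXC family were raised beside Cxcl13 at 3 months. The median difference of the list was 0.13 in cobalt muscle against tantalum and 0.31 in nickel muscle against the 6 metals. Of all probe sets, 4.87% rose in cobalt muscle against tantalum and 5.19% in nickel muscle against the 6 metals. Of 12 measured, 5 rose in cobalt muscle against tantalum, led by the interferon-induced T cell attractants Cxcl9 (3.29 ± 0.24) and Cxcl11 (3.03 ± 0.20). Against the 6 metals 6 rose in nickel muscle, led by the neutrophil attractant Cxcl2 (1.10 ± 0.16, limma adjusted p = 7.48e-08) and Cxcl16 (0.87 ± 0.14, adjusted p = 1.2e-06). Their receptor genes gave 3 of 6 in cobalt muscle, led by Cxcr3 (2.14 ± 0.26), and 2 of 6 in nickel muscle. Of 9 dendritic cell genes 3 rose in cobalt muscle against tantalum, with a median difference of 0.26 over the list. They were Xcr1 (2.14 ± 0.25) and Clec9a (0.99 ± 0.21), receptors of cross-presenting dendritic cells, and the transcription factor Irf8 (0.38 ± 0.11). Against the 6 metals 4 of the 9 were higher in cobalt muscle and 1 lower, with a median of 0.03. Of all probe sets, 7.59% were higher and 2.02% lower in that comparison.

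The mean level of the 8 genes other than Cxcl13 followed, over the 34 group means without cobalt at 3 months, Plac8 (0.75), Arhgap30 (0.75), Ifi30 (0.74), Ccnd3 (0.74) and Tmsb10 (0.74), as a description. In aluminum muscle at 12 months, replicate 3 held Cxcl13 at 10.29 with a macrophage mean of 7.30, while replicates 1 and 2 held 5.59 and 6.92 with means of 6.57 and 6.89.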
